A study of Homo sapiens with 14 samples.

Results

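The genes described here are 41 genes of fatty acid uptake, oxidation and lipid storage, out of 60587 genes in each table, followed through cartilage formation in pellets made from the human embryonic stem cells WA01 (line H1). The genes were chosen by name, for their textbook roles and with earlier results of these data known. They were found in the tables through their Ensembl identifiers. Pellets were kept in chondrogenic medium for 21 days (4 libraries), 30 days (5 libraries) or 45 days (5 libraries), and RNA of whole pellets was sequenced. By their labels all libraries come from 1 unmodified line in 1 kind of medium and the groups differ in the day of culture, with no group outside chondrogenic medium. The question of the series is how gene expression differs between these stages.

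Fatty acids enter cells with the help of surface and membrane proteins, are carried by small binding proteins and are joined to coenzyme A by acyl-CoA synthetases. From there they can be stored as triglyceride in lipid droplets, which perilipins coat, or pass into mitochondria through the carnitine shuttle and be shortened by beta-oxidation. The PPAR nuclear receptors, which bind fatty acids, control many genes of these routes. Cartilage has no blood vessels, and chondrocytes are known mainly for their reliance on glycolysis.

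Libraries held 18183776 to 33660704 expected counts, and 17838 genes passed the filter on low counts. Of the 41 genes, 39 passed; ACSL6 and PLIN5 did not, with at most 0.0824 and 0.0926 CPM (read counts scaled to a common library size) in any library. All 8 chondrocyte markers were higher at day 45 than at day 21, beside 27.1% of all genes, and 6 of the 8 were on the log2(TPM + 1) scale. Their summed level was 39571 to 50723 CPM at day 21, 93989 to 229365 CPM at day 30 and 193579.7 to 305773 CPM at day 45. Between day 45 and day 30, 2 of these markers were higher, 1 was lower and 5 were not called. Nothing in the labels says that replicates came from separate cultures, and p-values therefore reflect only how far these samples spread, which may be technical. In whole pellets, fewer cells of a type and less RNA per cell cannot be told apart. Day 30 replicates 3, 4 and 5 stood apart: the longer a gene, the lower it tended to be in them relative to the average library, with a Spearman rho across genes of -0.45, -0.54 and -0.48. In day 30 replicates 1 and 2 it was 0.00 and -0.06, and whether gene length bears on a result was followed with a length offset. The TPM scale allows for the length of a gene but not for a length trend that differs between libraries, so it cannot decide this. The library titled day 45 replicate 1 has a treatment label of 30 days and was kept at the day in its title. Every replicate pair differed beyond sampling noise. Calls of the 39 genes that were lost without day 30 replicates 3 to 5, or with day 45 replicate 1 placed at day 30, are named with the results. The related lists and cell type markers are given without these checks.

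Levels of a gene between libraries are given in CPM after TMM scaling (a trimmed mean over genes sets the library sizes), and levels between genes in TPM, a share of transcripts that allows for gene length. A gene was called where edgeR's quasi-likelihood test gave an adjusted p below 0.05, and each log2 fold change is the later day over the earlier day, with its standard error (SE). Between day 45 and day 21, 18 of the 39 genes were higher, 10 were lower and 11 were not called. The higher genes were 46.2% of those tested, beside 27.1% of all genes, and the lower ones 25.6%, beside 30.5% of all genes. By more than 2-fold, 11 were higher and 5 lower, in a background of 10.2% and 15.1%. The median log2 fold change of the 39 genes was 0.29, beside -0.05 over all genes. The split depended on the scale. On log2(TPM + 1), tested with limma, 11 were higher and 14 lower, beside 12% and 48.9% of all genes, with a median of -0.14 for these genes and -0.34 for all genes.

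Day 30 set against day 21 gave 15 higher and 7 lower genes, in a background of 27.2% and 27.1%, with medians of 0.18 for these genes and 0.02 for all. On the log2(TPM + 1) scale the same comparison gave 6 higher and 17 lower genes, beside 10% and 50.6% of all genes, with medians of -0.25 and -0.35. Without day 30 replicates 3 to 5 it gave 11 higher and 5 lower, beside 19.6% and 21.7% of all genes. Day 45 set against day 30 gave 12 higher and 7 lower genes, in a background of 27.6% and 28.7%, with medians of 0.03 and -0.04. On the log2(TPM + 1) scale that comparison gave 13 higher and 8 lower genes, beside 27.1% and 23.3% of all genes. With day 45 replicate 1 placed at day 30, 7 genes were higher and 7 lower, and the shares over all genes were also smaller, at 17% and 19.2%. The comparisons share libraries and are not independent of each other.

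**Figure D1:**
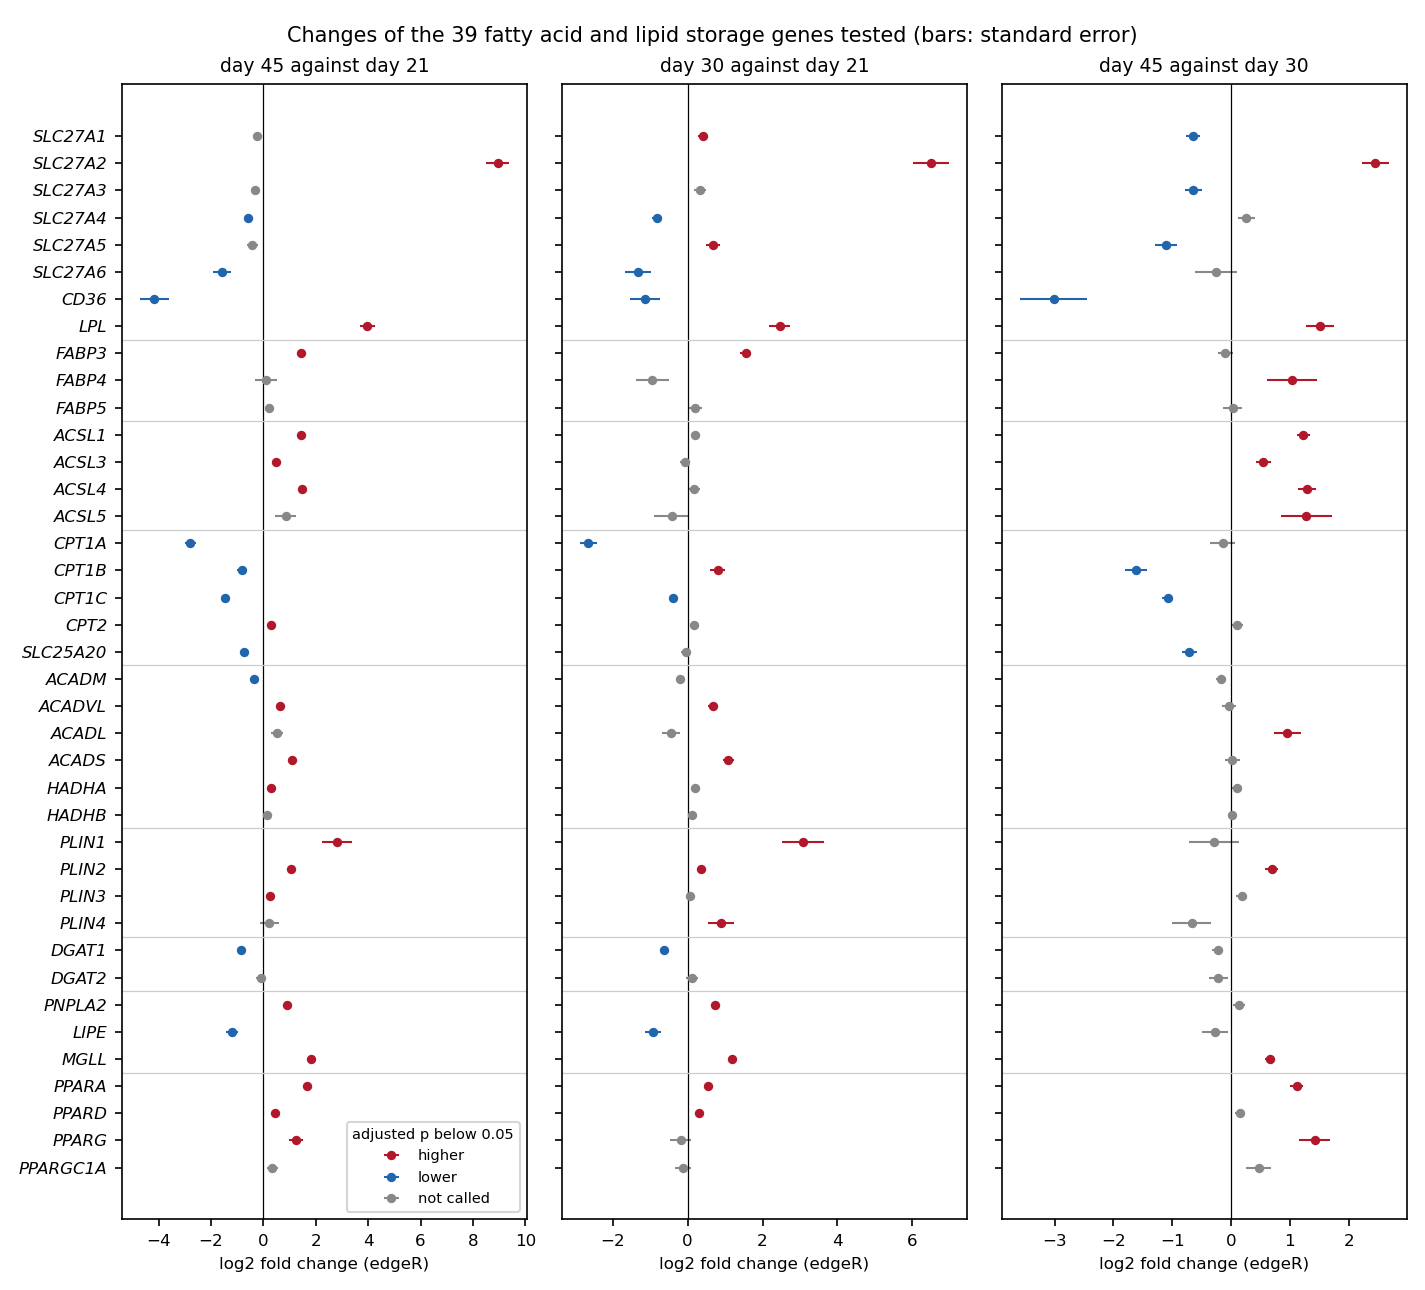
Log2 fold change of each of the 39 genes tested, with bars of 1 SE, in day 45 against day 21 (left), day 30 against day 21 (middle) and day 45 against day 30 (right). Genes are ordered by role and coloured by call. SLC27A2 and LPL lie farthest to the right on the left panel, and CD36 and CPT1A farthest to the left.

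Taken step by step, 5 of the 39 genes rose at both steps (SLC27A2, LPL, PLIN2, MGLL and PPARA), beside 5.61% of all genes, and 2 fell at both (CD36 and CPT1C), beside 5.13%. Another 7 rose by day 30 and were not called after it (FABP3, ACADVL, ACADS, PLIN1, PLIN4, PNPLA2 and PPARD), beside 10.6% of all genes, and 7 were not called by day 30 and rose after it (FABP4, ACSL1, ACSL3, ACSL4, ACSL5, ACADL and PPARG), beside 10%. Of the genes that fell by day 30, 5 were not called after it (SLC27A4, SLC27A6, CPT1A, DGAT1 and LIPE), beside 9.97% of all genes. SLC27A1, SLC27A5 and CPT1B rose and then fell, beside 11% of all genes. SLC27A3 and SLC25A20 were not called by day 30 and fell after it, beside 12.6%. The other 8 genes were called in neither step, beside 23.0% of all genes. By these edgeR calls no gene of the 39 fell and then rose, which 12% of all genes did. Called lower and then higher on the log2(TPM + 1) scale were ACSL3 (-0.47 then 0.47) and ACADL (-0.64 then 0.69). So were PLIN3 (-0.48 then 0.29) and PPARGC1A (-0.45 then 0.38), and the share of all genes on that scale was not counted. On the log2(TPM + 1) scale the first step of SLC27A1, PLIN2, PPARA and PPARD had the opposite sign, and the first step of SLC27A5, CPT1B, ACADVL, PLIN4 and PNPLA2 was not called. Without day 30 replicates 3 to 5 the first step of SLC27A1, SLC27A5, SLC27A6, CD36, CPT1B, PLIN2, PLIN4 and PPARD was not called, and with day 45 replicate 1 placed at day 30 that of SLC27A1 (0.32, edgeR adjusted p = 0.0951), CPT1B (0.65, edgeR adjusted p = 0.078) and PLIN4 (0.80, edgeR adjusted p = 0.0903) was not. The summed level of all 41 genes was 1194 ± 53.7 TPM at day 21 (SD over 4 libraries), 1108 ± 40.7 TPM at day 30 (SD over 5 libraries) and 1136 ± 62.4 TPM at day 45 (SD over 5 libraries).

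The stretch before the start of transcription is shown for the genes with the largest rises and falls between day 21 and day 45 among those described in full, as promoters are where regulators bind. LPL and DGAT1 were left out of that choice and are not shown. The sequences are from RefSeq (GRCh38.p14), written 5′ to 3′ on the strand of the gene, and end at the start or where an exon of the annotation begins. Capitals mark the motifs searched.
SLC27A2: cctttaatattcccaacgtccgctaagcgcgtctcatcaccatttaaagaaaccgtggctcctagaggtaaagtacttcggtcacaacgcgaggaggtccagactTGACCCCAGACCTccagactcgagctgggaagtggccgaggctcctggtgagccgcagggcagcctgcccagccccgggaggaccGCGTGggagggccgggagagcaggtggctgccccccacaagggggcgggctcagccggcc
PPARA: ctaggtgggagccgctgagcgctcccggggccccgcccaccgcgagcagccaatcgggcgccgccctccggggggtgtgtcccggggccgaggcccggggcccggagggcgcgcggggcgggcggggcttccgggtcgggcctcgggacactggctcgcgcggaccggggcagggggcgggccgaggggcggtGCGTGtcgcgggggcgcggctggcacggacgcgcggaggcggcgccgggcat
ACSL4: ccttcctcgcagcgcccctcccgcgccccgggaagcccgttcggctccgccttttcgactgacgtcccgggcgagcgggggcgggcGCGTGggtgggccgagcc
CPT1A: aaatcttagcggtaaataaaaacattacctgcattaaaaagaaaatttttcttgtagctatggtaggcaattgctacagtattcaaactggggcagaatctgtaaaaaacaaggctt
CPT1C: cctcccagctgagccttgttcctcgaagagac
They span chr15:50181946-50182195 (plus strand), chr22:46150276-46150520 (plus), chrX:109733404-109733507 (minus), chr11:68844411-68844527 (minus) and chr19:49690866-49690897 (plus). MGLL and CPT1B had no entry. The first motif searched was a direct repeat of AGGTCA with 1 base between the copies (DR1), the repeat that PPAR and RXR bind, with at most 2 mismatches in its 12 fixed letters. The second was ACGTG or GCGTG, the core that HIF factors bind. Both strands of the 250 bases before the start were read, and the motifs do not overlap each other where found.

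SLC27A2 held a DR1 match on the minus strand, 145 bases before the start and with 2 mismatches, and a GCGTG 60 bases before it. PPARA held a GCGTG 57 bases and ACSL4 one 164 bases before the start. In the same window of CPT1A and CPT1C neither motif was found. CPT1C has 3 listed starts and PPARA 2, and only the first of each was read. A DR1 match stood in 2.57% of 35116 promoters and in 2 of the 34 genes of this set with an entry (5.88%). ACGTG or GCGTG stood in 43.2% of all promoters and in 19 of the 34 (55.9%). The shares over all promoters count every listed start, whereas each gene of this set was read at its first start only, so the units differ. GC content was 64.4% before SLC27A2, 84.4% before PPARA, 77.2% before ACSL4, 44.4% before CPT1A and 60.0% before CPT1C. A match describes letters only, and no binding was measured here.

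The uptake genes differed from each other. SLC27A2 and LPL rose between day 21 and day 45, CD36, SLC27A4 and SLC27A6 fell, and SLC27A1, SLC27A3 and SLC27A5 were not called. The last 3 were called lower on the log2(TPM + 1) scale (-0.52, -0.72 and -0.91), where 48.9% of all genes were lower. Relative to the median of all genes on that scale they lay at -0.18, -0.38 and -0.57. SLC27A2 (ENSG00000140284; chromosome 15, 50182196 to 50236395, plus strand, GRCh38) encodes a fatty acid transport protein that also joins very long chain fatty acids to coenzyme A, best known from liver and kidney. It had 0.0278, 0.0507, 0.0259 and 0 CPM at day 21, then 3.10, 3.2, 2.73, 3.77 and 1.35 CPM at day 30, and 21.3, 11.8, 17.2, 14.6 and 12.1 CPM at day 45. The 3 days did not overlap. In counts, 1972 in all day 45 libraries stood against 4 in all day 21 libraries, a ratio of 576 per effective library size (exact interval 225 to 2116), and 308 at day 30 gave a ratio of 103 (39.8 to 380.5). Such intervals hold counting error and nothing else, as reads copied in PCR are not separate molecules. edgeR put its log2 fold change at 8.94 ± 0.43 (SE) for day 45 against day 21 (edgeR adjusted p = 2.82e-11) and 2.45 ± 0.23 for day 45 against day 30 (edgeR adjusted p = 3.28e-07). The later step was 1.23 and not called with day 45 replicate 1 placed at day 30 (edgeR adjusted p = 0.0916). SLC27A2 shares 557 exon bases with ATP8B4 on the opposite strand, which had a mean of 0.0534, 0.440 and 1.26 CPM at days 21, 30 and 45, and the kit does not mark the strand. Of 8 liver markers, 7 had a mean under 1 CPM over all libraries and FGA was at 0 in every library. SERPINA1 had a mean of 1.31, 29.8 and 106 CPM at days 21, 30 and 45. The summed liver markers were 1.66 to 5.14, 21.7 to 35.7 and 75.4 to 150.1 CPM at days 21, 30 and 45, and their part in the result was not tested.

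LPL (ENSG00000175445; chromosome 8, 19901717 to 19967259, plus strand), lipoprotein lipase, frees fatty acids from circulating triglyceride. Day 21 libraries had 1.97, 1.49, 1.89 and 1.76 CPM, day 30 libraries 14.5, 13, 6.34, 10.2 and 4.96 CPM, and day 45 libraries 37.8, 22.9, 24.1, 24.5 and 30.3 CPM. No day overlapped another, and within day 30 replicates 1 and 2 were the highest. On the log2 scale the change was 3.97 ± 0.29 (SE) for day 45 against day 21 (edgeR adjusted p = 5.85e-09), 2.46 ± 0.28 for day 30 against day 21 (edgeR adjusted p = 2.28e-06) and 1.51 ± 0.24 for day 45 against day 30 (edgeR adjusted p = 5.24e-05). The last was 0.81 and not called with day 45 replicate 1 placed at day 30 (edgeR adjusted p = 0.121). Macrophages also make lipoprotein lipase. Of 8 macrophage markers, 6 had a mean under 1 CPM over all libraries and TYROBP was at 0 in every library. CD68 had a mean of 1.07, 8.08 and 53.3 CPM and AIF1 a mean of 9.61, 9.88 and 1.88 CPM at days 21, 30 and 45. Of the 3 tested between day 45 and day 21, CD68 and CD163 were higher and AIF1 was lower. Their sum was 9.41 to 12.3, 13 to 25.4 and 47.4 to 67.2 CPM, and their part in the LPL result was not tested.

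CD36 (ENSG00000135218; chromosome 7, 80369575 to 80679277, plus strand), a scavenger receptor that takes up long chain fatty acids, was low throughout and lowest at day 45. It held 7 counts in all day 45 libraries against 158 in all day 21 libraries, a ratio of 0.0517 (exact interval 0.0205 to 0.109), or 19.3-fold lower. Its values were 0 to 0.165 CPM at day 45 and 0.611 to 1.42 CPM at day 21, and these did not overlap, while day 30, at 0.308 to 0.787 CPM, overlapped day 21. The fall of day 30 against day 21 (-1.14 ± 0.41, edgeR adjusted p = 0.0263) was lost without day 30 replicates 3 to 5, and also without any 1 of day 21 replicates 3 and 4 and day 30 replicates 1, 3 and 5. Day 45 against day 21 gave a log2 fold change of -4.16 ± 0.54 (SE; edgeR adjusted p = 3.90e-06).

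SLC27A3 (ENSG00000143554; chromosome 1, 153774354 to 153780157, plus strand), an acyl-CoA synthetase of the transport protein family, had the highest TPM of the uptake genes over all libraries, with means of 16.9, 18.5 and 9.86 TPM at days 21, 30 and 45, though at day 45 LPL (17.8 TPM) and SLC27A2 (10.6 TPM) were above it. It had 13.9, 12.4, 13.3 and 10.5 CPM at day 21, then 11.5, 14.7, 17.5, 16.4 and 18.8 CPM at day 30, and 13, 9.72, 9.73, 8.27 and 9.73 CPM at day 45. All days overlapped. The gene was lower at day 45 than at day 30, by a log2 fold change of -0.64 ± 0.14 (SE; edgeR adjusted p = 0.00103), and this was -0.38 and not called without day 30 replicates 3 to 5 (edgeR adjusted p = 0.0836). It shares 455 exon bases with INTS3 on the same strand, which had a mean of 133, 184 and 133 CPM at days 21, 30 and 45.

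SLC27A5 (ENSG00000083807; chromosome 19, 58479512 to 58512413, minus strand), which in liver joins bile acids to coenzyme A, peaked at day 30. Libraries of day 21 had 3.11, 3.60, 2.82 and 3.17 CPM, those of day 30 had 4.71, 3.77, 5.14, 6.25 and 5.61 CPM, and those of day 45 had 3.45, 2.03, 1.91, 1.89 and 2.56 CPM. Day 30 lay above the other days in every library. The gene fell by 1.11 ± 0.19 (SE) on the log2 scale at day 45 against day 30 (edgeR adjusted p = 1.03e-04), while the rise of day 30 over day 21 (0.68 ± 0.19, edgeR adjusted p = 0.00644) was 0.41 and not called without day 30 replicates 3 to 5 (edgeR adjusted p = 0.199). That rise was also not called on the log2(TPM + 1) scale (0.07, limma adjusted p = 0.689) or with a length offset (0.33, edgeR adjusted p = 0.129). It shares 1131 exon bases with ZNF446 on the opposite strand, at a mean of 12, 15.3 and 13.4 CPM at days 21, 30 and 45.

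Of the other transport proteins, SLC27A4 had a mean of 12.8 ± 2.22 CPM at day 45 (SD over 5 libraries) and 19 ± 1.06 CPM at day 21 (SD over 4 libraries), a log2 fold change of -0.57 (edgeR adjusted p = 0.00212). SLC27A1 was higher at day 30 than at day 21 (log2 fold change 0.41, edgeR adjusted p = 0.00875), a direction that turned on the log2(TPM + 1) scale (-0.10, or 0.25 above the median of all genes on that scale), and was lower at day 45 than at day 30 (-0.65, edgeR adjusted p = 1.49e-04). Without day 30 replicates 3 to 5 its first step was 0.35 and not called (edgeR adjusted p = 0.0798). SLC27A6 was at 0.414 CPM on average at day 45 and 1.25 CPM at day 21, a log2 fold change of -1.58 (edgeR adjusted p = 6.53e-04). It shares 56 exon bases on the opposite strand with FBN2, whose mean was 1919, 657 and 529.7 CPM at days 21, 30 and 45, and without strand the reads of both cannot be told apart there.

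Within the family of 6 transport proteins, SLC27A2 made up 0.222% ± 0.340 of the summed TPM at day 21 (SD over 4 libraries), 4.25% ± 1.72 at day 30 (SD over 5 libraries) and 26.0% ± 4.11 at day 45 (SD over 5 libraries). At day 45 it stood beside SLC27A3 (24.3% ± 2.97) and SLC27A1 (21.0% ± 4.23), whose ranges overlapped its own. SLC27A4 made up 24.8% ± 2.08 at day 21 and 16.2% ± 2.83 at day 45. The family as a whole held 54.1 ± 4.19 TPM at day 21, 49.3 ± 5.11 TPM at day 30 and 40.7 ± 4.46 TPM at day 45.

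Among the binding proteins FABP3 rose early and FABP5 was not called. FABP3 (ENSG00000121769; chromosome 1, 31365625 to 31376850, minus strand), the heart type carrier of fatty acids in the cytosol, had 14.3, 11.3, 14.1 and 17.3 CPM at day 21, then 35.1, 32.7, 44.2, 53.0 and 43.6 CPM at day 30, and 37.0, 34.5, 36.8, 46.9 and 39.9 CPM at day 45. Every library of the later days lay above every day 21 library, and days 30 and 45 overlapped. The log2 fold change was 1.45 ± 0.15 (SE) for day 45 against day 21 (edgeR adjusted p = 2.45e-07) and 1.55 ± 0.15 for day 30 against day 21 (edgeR adjusted p = 2.40e-07). Of 10 muscle markers, 6 had a mean under 1 CPM over all libraries. The sum of the 10 markers was 15.1 to 20.1, 22.7 to 37.1 and 21.0 to 34.2 CPM at days 21, 30 and 45. Of the 5 muscle markers tested between day 45 and day 21, TNNT3 was higher, with means of 19.9 CPM at day 45 and 2.27 CPM at day 21, and MYH3, TNNT2, ACTN2 and TTN were lower. Their part in the FABP3 result was not tested.

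FABP5 (ENSG00000164687; chromosome 8, 81280363 to 81284777, plus strand), the epidermal type carrier, had 33.5, 28.9, 31.4 and 37.4 CPM at day 21, then 28.6, 34.2, 36.7, 51.5 and 38.2 CPM at day 30, and 32.2, 35.1, 49.0, 46.7 and 29.9 CPM at day 45. The days overlapped, and the log2 fold change of day 45 against day 21 was 0.23 ± 0.17 (SE; edgeR adjusted p = 0.239). The annotation holds 13 pseudogenes named after it, so its counts are uncertain. FABP3 made up 45.7% ± 5.27 of the summed TPM of the 3 binding proteins at day 45 (SD over 5 libraries) and 24.8% ± 2.36 at day 21 (SD over 4 libraries). FABP4, the adipocyte type, averaged 0.951 CPM at day 45 and 0.451 CPM at day 30, and its call there (log2 fold change 1.04, edgeR adjusted p = 0.0493) was lost under 16 of 25 alternatives. Among these were day 45 replicate 1 placed at day 30 and both TPM scales.

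**Figure D2:**
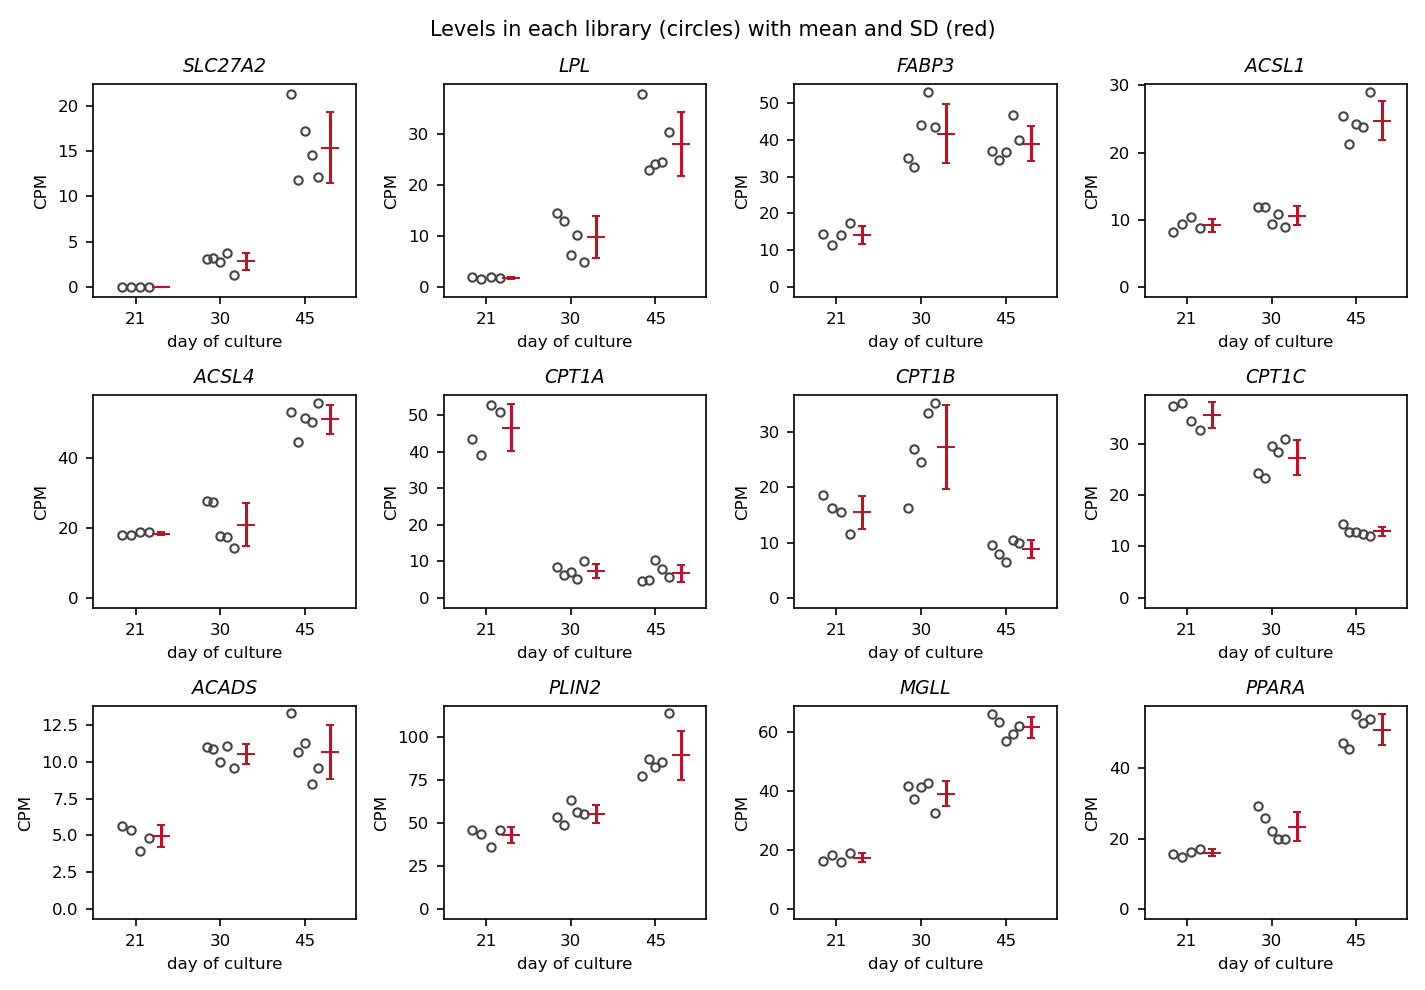
CPM of 12 genes in each library (circles) at days 21, 30 and 45, with the mean and SD of each day in red. SLC27A2, LPL, MGLL and PPARA are higher at each later day (on the TPM scale the first step of PPARA turned), ACSL1 and ACSL4 are highest at day 45, and CPT1A is at 5.16 to 10.2 CPM at day 30 and 39 to 52.7 CPM at day 21.

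Of the 4 acyl-CoA synthetases tested, none was called between day 30 and day 21 and all 4 were higher at day 45 than at day 30, beside 27.6% of all genes, though ACSL3 was not called without day 30 replicates 3 to 5, nor ACSL5 with day 45 replicate 1 placed at day 30. ACSL4 (ENSG00000068366; chromosome X, 109624244 to 109733403, minus strand), which prefers arachidonic acid, had 17.9, 18.1, 18.7 and 18.8 CPM at day 21, then 27.6, 27.5, 17.8, 17.4 and 14.3 CPM at day 30, and 53.1, 44.5, 51.3, 50.3 and 55.7 CPM at day 45. Day 45 lay above all others, and at day 30 replicates 1 and 2 lay above day 21 while replicates 3 to 5 did not. On the log2 scale the change was 1.47 ± 0.16 (SE) for day 45 against day 21 (edgeR adjusted p = 5.55e-07) and 1.29 ± 0.15 for day 45 against day 30 (edgeR adjusted p = 2.84e-06). Day 30 against day 21 gave 0.18 with all libraries and 0.58, a call, without day 30 replicates 3 to 5 (edgeR adjusted p = 2.11e-04). With a length offset that step was also a call (0.49, edgeR adjusted p = 0.0012).

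ACSL1 (ENSG00000151726; chromosome 4, 184755595 to 184826818, minus strand), which feeds both oxidation and triglyceride synthesis, had 8.17, 9.35, 10.4 and 8.84 CPM at day 21, then 11.9, 11.9, 9.35, 10.9 and 8.88 CPM at day 30, and 25.4, 21.3, 24.3, 23.8 and 29.1 CPM at day 45. Days 21 and 30 overlapped and day 45 stood above both. In log2 units the change was 1.43 ± 0.12 (SE) for day 45 against day 21 (edgeR adjusted p = 2.68e-08) and 1.23 ± 0.11 for day 45 against day 30 (edgeR adjusted p = 2.74e-07). Without day 30 replicates 3 to 5, day 30 was also higher than day 21 (0.37, edgeR adjusted p = 0.0368), and so it was with a length offset (0.34, edgeR adjusted p = 0.0137).

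ACSL3 (ENSG00000123983; chromosome 2, 222860934 to 222944639, plus strand), found on the endoplasmic reticulum and on forming lipid droplets, had the highest TPM of the synthetases. It had 80.2, 85.2, 108 and 97.8 CPM at day 21, then 113, 106, 76.9, 79.0 and 66.4 CPM at day 30, and 122, 116, 134, 143 and 130.2 CPM at day 45. Day 45 lay above the other days. Day 45 against day 21 gave a log2 fold change of 0.47 ± 0.14 (SE; edgeR adjusted p = 0.00877) and was 0.00 on the log2(TPM + 1) scale, and that of day 45 against day 30 (0.55, edgeR adjusted p = 0.00235) was 0.22 and not called without day 30 replicates 3 to 5 (edgeR adjusted p = 0.133). ACSL3 made up 82.9% ± 1.74 of the TPM of the family at day 21 (SD over 4 libraries), 81.4% ± 2.81 at day 30 (SD over 5 libraries) and 71.5% ± 3.03 at day 45 (SD over 5 libraries). ACSL5 averaged 0.463 CPM at day 45 and 0.186 CPM at day 30, a log2 fold change of 1.28 (edgeR adjusted p = 0.0164) that was 0.66 with day 45 replicate 1 placed at day 30 (edgeR adjusted p = 0.3). ACSL5 shares 144 exon bases on the opposite strand with ZDHHC6, whose mean was 22.3, 23.8 and 14.4 CPM at days 21, 30 and 45.

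Of the 5 genes of the carnitine shuttle, 4 were lower at day 45 than at day 21, beside 30.5% of all genes, and CPT2 was higher, a direction that turned on the log2(TPM + 1) scale. CPT1 isoforms hand acyl groups to carnitine at the outer mitochondrial membrane, the step that limits entry of long chain fatty acids. CPT1A (ENSG00000110090; chromosome 11, 68754620 to 68844410, minus strand), the liver type, had 43.5, 39, 52.7 and 50.8 CPM at day 21, then 8.38, 6.18, 6.99, 5.16 and 10.2 CPM at day 30, and 4.67, 5.03, 10.4, 7.78 and 5.69 CPM at day 45. Days 30 and 45 overlapped and lay far below day 21. The gene fell by 2.79 ± 0.22 (SE) on the log2 scale at day 45 against day 21 (edgeR adjusted p = 1.15e-08) and fell by 2.65 ± 0.22 at day 30 against day 21 (edgeR adjusted p = 5.20e-08), and was not called between day 30 and day 45 (-0.14 ± 0.21, edgeR adjusted p = 0.582). Both falls were called under all 26 alternatives.

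CPT1C (ENSG00000169169; chromosome 19, 49690898 to 49713731, plus strand), the brain type, which sits on the endoplasmic reticulum and has little transferase activity, had 37.3, 37.9, 34.4 and 32.6 CPM at day 21, then 24.3, 23.3, 29.6, 28.3 and 30.9 CPM at day 30, and 14.4, 12.9, 12.9, 12.4 and 12.1 CPM at day 45. The days did not overlap. It fell by 1.46 ± 0.10 (SE) on the log2 scale at day 45 against day 21 (edgeR adjusted p = 1.69e-09), with the larger part of the fall after day 30 (-1.08 ± 0.10, edgeR adjusted p = 1.74e-07). Of 6 pluripotency markers, 5 had a mean under 1 CPM over all libraries and PRDM14 was at 0 in every library. The sum of the 6 markers, mostly DPPA4, was 13.8 to 17.3, 3.77 to 6.20 and 0.353 to 1.35 CPM at days 21, 30 and 45. Their part in the falls of CPT1A and CPT1C was not tested.

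CPT1B (ENSG00000205560; chromosome 22, 50568861 to 50578465, minus strand), the muscle type, had 18.6, 16.2, 15.6 and 11.5 CPM at day 21, then 16.2, 26.9, 24.6, 33.4 and 35.1 CPM at day 30, and 9.58, 7.96, 6.46, 10.4 and 9.93 CPM at day 45. Day 45 lay below both other days, which overlapped. It fell by 0.81 ± 0.20 (SE) on the log2 scale at day 45 against day 21 (edgeR adjusted p = 0.00243) and fell by 1.62 ± 0.19 at day 45 against day 30 (edgeR adjusted p = 3.99e-06). The rise of day 30 over day 21 (0.81 ± 0.20, edgeR adjusted p = 0.00251) was 0.46 and not called without day 30 replicates 3 to 5 (edgeR adjusted p = 0.115), and 0.12 and not called on the log2(TPM + 1) scale (limma adjusted p = 0.639). CPT1B shares 2722 exon bases with the readthrough gene CHKB-CPT1B, whose mean was 7.97, 8.86 and 3.80 CPM at days 21, 30 and 45, so the split of reads between them is uncertain.

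The 3 CPT1 genes together held 95.8 ± 13.7 TPM at day 21 (SD over 4 libraries), 60.8 ± 9.58 TPM at day 30 (SD over 5 libraries) and 25.5 ± 2.94 TPM at day 45 (SD over 5 libraries), with no overlap between days. CPT1A made up 23.3% ± 5.97, 3.90% ± 1.28 and 11% ± 5.72 of that sum at days 21, 30 and 45. SLC25A20, the carrier that brings acylcarnitine across the inner membrane, fell by 0.75 ± 0.14 (SE) on the log2 scale at day 45 against day 21 (edgeR adjusted p = 1.46e-04), with means of 9.75 CPM at day 45 and 16.4 CPM at day 21. CPT2, which returns the acyl group to coenzyme A inside, had means of 12.4 CPM at day 45 and 10.2 CPM at day 21. Its log2 fold change of 0.29 (edgeR adjusted p = 0.0299) turned to -0.14 on the log2(TPM + 1) scale, where it lay 0.20 above the median of all genes, and its call was lost without any 1 of day 21 replicates 1 to 3 and day 45 replicates 1 and 2, and with day 45 replicate 1 placed at day 30 (0.24, edgeR adjusted p = 0.11).

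**Figure D3:**
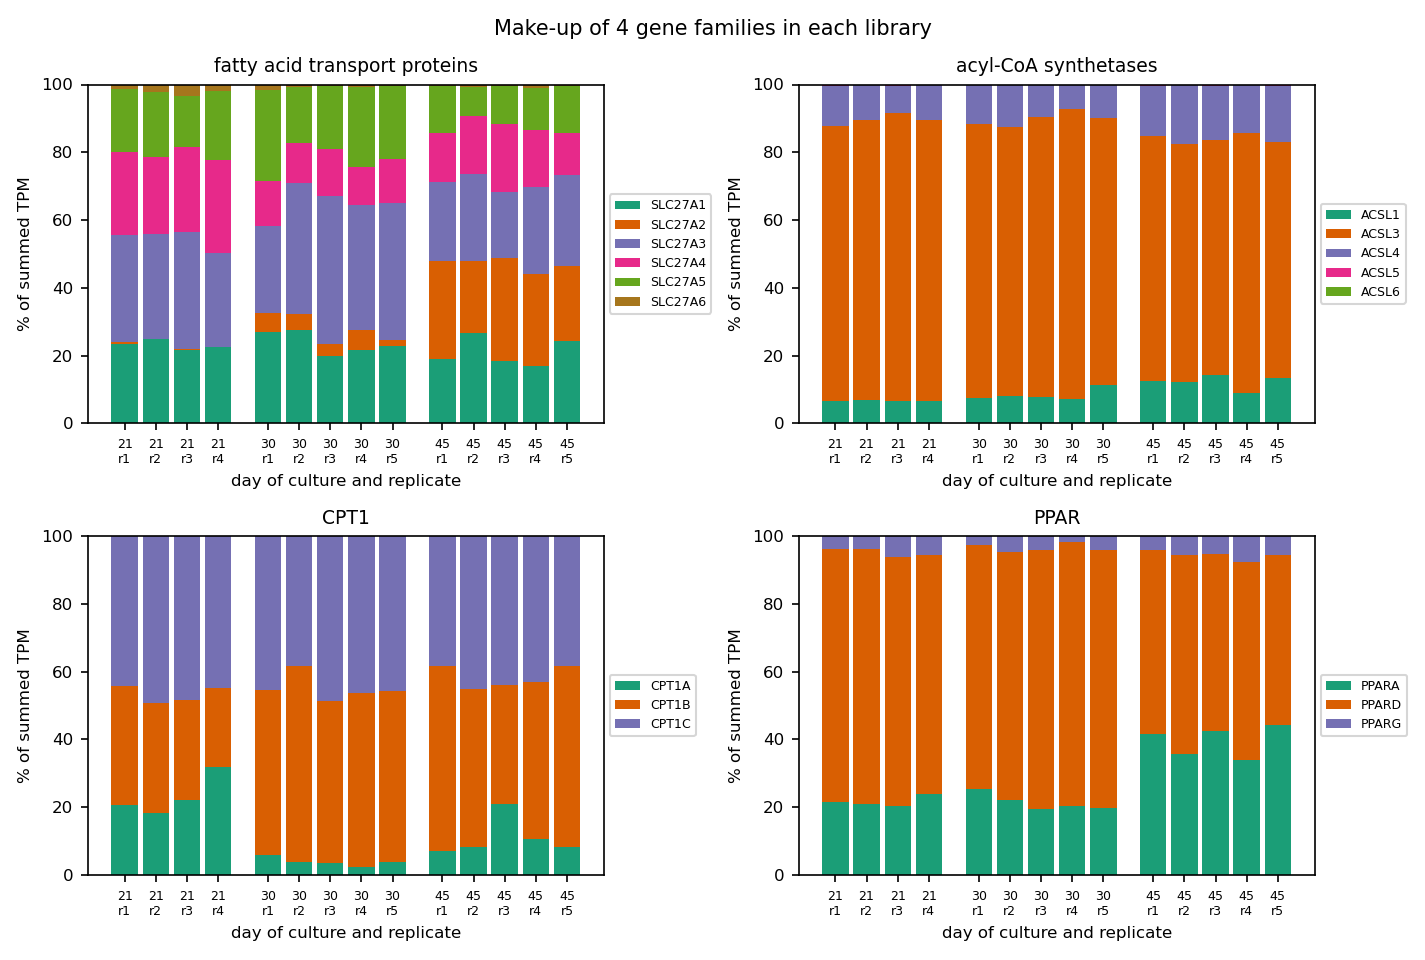
Share of each gene in the summed TPM of its family, in percent, in each of the 14 libraries, for the transport proteins, acyl-CoA synthetases, CPT1 genes and PPAR receptors. SLC27A2 reaches 21.2% to 30.5% at day 45, CPT1A is 18.4% to 32.0% at day 21 and 2.29% to 5.87% at day 30, and PPARA is 33.9% to 44.2% at day 45 and 20.3% to 23.9% at day 21.

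Of the 6 beta-oxidation enzymes 3 were higher, 1 was lower and 2 were not called between day 45 and day 21. Over all genes, 27.1% were higher and 30.5% lower. Of the 3 higher enzymes, ACADVL and HADHA had the opposite sign on the log2(TPM + 1) scale. ACADVL (ENSG00000072778; chromosome 17, 7217125 to 7225273, plus strand), the very long chain acyl-CoA dehydrogenase, had the highest mean TPM of all 41 genes. It had 141, 142, 127 and 115 CPM at day 21, then 161, 177, 222, 233 and 253 CPM at day 30, and 227, 206, 187, 200.1 and 194 CPM at day 45. Both later days lay above day 21 and overlapped each other. Day 45 against day 21 gave a log2 fold change of 0.63 ± 0.13 (SE; edgeR adjusted p = 3.52e-04) but -0.02 on the log2(TPM + 1) scale, where it lay 0.32 above the median of all genes.

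ACADS (ENSG00000122971; chromosome 12, 120725735 to 120740008, plus strand), the short chain enzyme, had 5.64, 5.39, 3.93 and 4.85 CPM at day 21, then 11, 10.9, 10, 11.1 and 9.61 CPM at day 30, and 13.3, 10.7, 11.3, 8.47 and 9.56 CPM at day 45. Days 30 and 45 overlapped and lay above day 21. The log2 fold change was 1.10 ± 0.14 (SE) for day 45 against day 21 (edgeR adjusted p = 3.22e-06) and 1.09 ± 0.14 for day 30 against day 21 (edgeR adjusted p = 6.41e-06), and both were called on the log2(TPM + 1) scale too.

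ACADM, the medium chain enzyme, had means of 27.6 CPM at day 45 and 35.6 CPM at day 21, a log2 fold change of -0.37 (edgeR adjusted p = 0.00298). It shares 157 exon bases with RABGGTB on the same strand, at a mean of 33.7, 62.9 and 70.6 CPM at days 21, 30 and 45. HADHA, a subunit of the trifunctional protein, had means of 169 CPM at day 45 and 138 CPM at day 21, and its log2 fold change of 0.29 (edgeR adjusted p = 0.011) turned to -0.14 on the log2(TPM + 1) scale, 0.20 above the median there. Its partner subunit HADHB was not called (0.15 ± 0.08, edgeR adjusted p = 0.137). ACADL, the long chain enzyme, was higher at day 45 than at day 30, with means of 3.71 CPM at day 45 and 1.91 CPM at day 30 (log2 fold change 0.96, edgeR adjusted p = 0.00185), and this was 0.62 and not called with day 45 replicate 1 placed at day 30 (edgeR adjusted p = 0.111).

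Lipid droplet coats were led by PLIN2 and PLIN3. PLIN2 (ENSG00000147872; chromosome 9, 19108375 to 19149290, minus strand), the coat found on droplets of most cells, had 46.2, 43.7, 36.3 and 46.0 CPM at day 21, then 53.5, 48.9, 63.4, 56.5 and 55.3 CPM at day 30, and 77.6, 87.3, 82.9, 85.8 and 114 CPM at day 45. The days did not overlap. edgeR put its log2 fold change at 1.06 ± 0.12 (SE) for day 45 against day 21 (edgeR adjusted p = 6.35e-07) and 0.69 ± 0.11 for day 45 against day 30 (edgeR adjusted p = 5.48e-05). Day 30 against day 21 gave 0.37 (edgeR adjusted p = 0.0126), which was 0.25 and not called without day 30 replicates 3 to 5 (edgeR adjusted p = 0.168). That step was also not called without day 21 replicate 3 or with a length offset (0.26, edgeR adjusted p = 0.0548). On the log2(TPM + 1) scale it turned to -0.10, 0.24 above the median there. PLIN2 made up 56.0% ± 6.26 of the TPM of the 5 perilipins at day 45 (SD over 5 libraries) and 42.4% ± 2.29 at day 21 (SD over 4 libraries), and PLIN3 made up 43.6% ± 6.27 at day 45 and 57.2% ± 2.32 at day 21.

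PLIN3, a coat of small new droplets, had means of 74.2 CPM at day 45 and 62.3 CPM at day 21. Its log2 fold change of 0.25 (edgeR adjusted p = 0.0353) was lost without any 1 of day 21 replicates 1 to 3 and day 45 replicates 1 and 3 or with day 45 replicate 1 placed at day 30 (0.21, edgeR adjusted p = 0.169), and turned to -0.18 on the log2(TPM + 1) scale, 0.16 above the median there. PLIN1, the coat of adipocyte droplets, rose and stayed very low. Its 63 counts in all day 45 libraries stood against 10 in all day 21 libraries, a ratio of 7.36 (exact interval 3.75 to 16.1; edgeR adjusted p = 4.32e-04), and no library passed 0.981 CPM. PLIN4 was at 0.340 to 3.03 CPM over all libraries, and its call for day 30 against day 21 (log2 fold change 0.90, edgeR adjusted p = 0.0359) was lost without any 1 of day 21 replicates 3 and 4 and day 30 replicates 2 and 3. PLIN4 shares 32 exon bases on the opposite strand with HDGFL2, whose mean was 54.9, 50.8 and 45.9 CPM at days 21, 30 and 45. Of 10 adipocyte markers, 9 had a mean under 1 CPM over all libraries and ADIPOQ, which encodes adiponectin, was at 0 in all 14 libraries. Their sum was 5.67 to 6.62, 2.73 to 5.50 and 3.95 to 4.95 CPM at days 21, 30 and 45. LIPE, PLIN1 and FABP4 stand in that list too.

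Of the genes of triglyceride synthesis, DGAT1 fell and DGAT2 was not called. DGAT1 (ENSG00000185000; chromosome 8, 144314584 to 144326910, minus strand), which adds the last acyl chain of a triglyceride, had 33.4, 32.9, 32.9 and 31.7 CPM at day 21, then 19.3, 17.1, 24.4, 21.3 and 23.5 CPM at day 30, and 19.9, 17.5, 16.9, 19.5 and 16.2 CPM at day 45. Both later days lay below day 21 and overlapped each other. It fell by 0.86 ± 0.10 (SE) on the log2 scale at day 45 against day 21 (edgeR adjusted p = 1.77e-06) and fell by 0.63 ± 0.10 at day 30 against day 21 (edgeR adjusted p = 7.79e-05). DGAT2, its unrelated counterpart, averaged 2.26 CPM at day 45 and 2.43 CPM at day 21 (log2 fold change -0.10 ± 0.17, edgeR adjusted p = 0.608). DGAT1 shares 139 exon bases on the opposite strand with HSF1, whose mean was 41.8, 40.1 and 54.2 CPM at days 21, 30 and 45.

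The lipases act in turn on tri-, di- and monoglycerides, and PNPLA2 and MGLL rose while LIPE fell. PNPLA2 (ENSG00000177666; chromosome 11, 818902 to 825573, plus strand), adipose triglyceride lipase, had 15.2, 14.6, 14 and 13.7 CPM at day 21, then 21.0, 20.6, 24.8, 26.6 and 27.3 CPM at day 30, and 29.9, 24.1, 27.0, 23.9 and 27.9 CPM at day 45. Both later days lay above day 21. Day 45 against day 21 gave a log2 fold change of 0.89 ± 0.11 (SE; edgeR adjusted p = 1.79e-06), and on the log2(TPM + 1) scale it was 0.17 and not called (limma adjusted p = 0.383), 0.51 above the median there.

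MGLL (ENSG00000074416; chromosome 3, 127689062 to 128052190, minus strand), monoglyceride lipase, had 16.2, 18.2, 15.9 and 19 CPM at day 21, then 41.7, 37.3, 41.3, 42.7 and 32.7 CPM at day 30, and 66.2, 63.3, 57.0, 59.3 and 62.2 CPM at day 45. The days did not overlap. On the log2 scale the change was 1.83 ± 0.10 (SE) for day 45 against day 21 (edgeR adjusted p = 1.04e-10), 1.18 ± 0.10 for day 30 against day 21 (edgeR adjusted p = 4.56e-08) and 0.66 ± 0.09 for day 45 against day 30 (edgeR adjusted p = 1.30e-05). LIPE, hormone-sensitive lipase, had means of 1.99 CPM at day 45 and 4.57 CPM at day 21 (log2 fold change -1.20 ± 0.22, edgeR adjusted p = 1.36e-04). It shares 500 exon bases with LIPE-AS1 on the opposite strand, at a mean of 0.983, 1.36 and 0.886 CPM at days 21, 30 and 45.

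**Figure D4:**
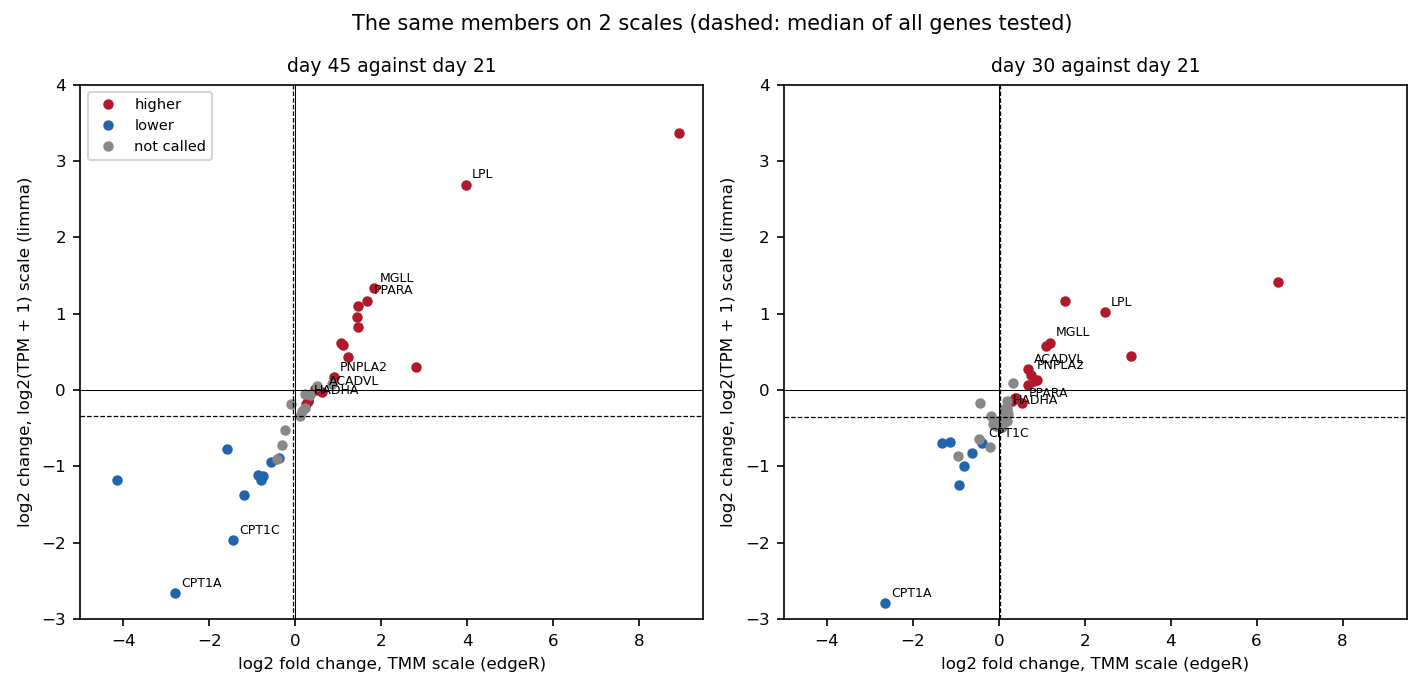
Log2 fold change on the TMM scale (horizontal, edgeR) and log2 change on the log2(TPM + 1) scale (vertical, limma) of the 39 genes tested, coloured by the edgeR call, for day 45 against day 21 (left) and day 30 against day 21 (right). On the left SLC27A2 is the point at 8.94 and 3.37, and ACADVL and HADHA are above 0 on the horizontal axis and below 0, but above the dashed median of all genes (-0.34), on the vertical axis.

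The 3 PPAR receptors were all higher at day 45 than at day 21, beside 27.1% of all genes. Still, PPARD was not called on the log2(TPM + 1) scale, nor PPARG on log2(TPM + 0.1) (0.65, limma adjusted p = 0.0544). PPARA (ENSG00000186951; chromosome 22, 46150521 to 46243756, plus strand), the receptor that drives oxidation genes in liver and heart, had 15.7, 14.9, 16.2 and 17.2 CPM at day 21, then 29.3, 25.9, 22.2, 19.8 and 20 CPM at day 30, and 47.3, 45.4, 55.6, 53.0 and 54.1 CPM at day 45. The days did not overlap. The log2 fold change was 1.67 ± 0.12 (SE) for day 45 against day 21 (edgeR adjusted p = 2.72e-09) and 1.12 ± 0.11 for day 45 against day 30 (edgeR adjusted p = 4.35e-07). The first step, 0.55 ± 0.12 (edgeR adjusted p = 7.82e-04), turned to -0.17 on the log2(TPM + 1) scale, 0.18 above the median there.

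PPARD (ENSG00000112033; chromosome 6, 35342558 to 35428191, plus strand), the most widely expressed receptor of the family, had 38.1, 34.3, 33.1 and 36.2 CPM at day 21, then 41.7, 40.4, 50.2, 44.9 and 41.6 CPM at day 30, and 54.1, 47.9, 47.6, 47.1 and 46.8 CPM at day 45. Day 21 lay below both later days, which overlapped. The log2 fold change of day 45 against day 21 was 0.46 ± 0.09 (SE; edgeR adjusted p = 2.32e-04) and 0.01 on the log2(TPM + 1) scale (limma adjusted p = 0.932), and that of day 30 against day 21 (0.30, edgeR adjusted p = 0.00716) turned to -0.14 there, 0.20 above the median. Without day 30 replicates 3 to 5 day 30 against day 21 gave 0.21 and was not called (edgeR adjusted p = 0.0997).

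PPARG (ENSG00000132170; chromosome 3, 12287368 to 12434356, plus strand), the receptor that directs adipocyte formation, was low. It had 0.862, 0.785, 1.06 and 1.08 CPM at day 21, then 0.689, 0.899, 1.16, 0.298 and 1.08 CPM at day 30, and 1.84, 2.10, 2.20, 2.63 and 2.35 CPM at day 45. Day 45 lay above both other days, which overlapped. On the log2 scale the change was 1.23 ± 0.27 (SE) for day 45 against day 21 (edgeR adjusted p = 9.25e-04) and 1.42 ± 0.27 for day 45 against day 30 (edgeR adjusted p = 2.71e-04).

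PPARGC1A (ENSG00000109819; chromosome 4, 23755041 to 23904089, minus strand), the coactivator PGC-1α that raises mitochondrial gene expression, had 1.89, 1.72, 1.45 and 1.76 CPM at day 21, then 1.45, 2.25, 1.71, 1.19 and 1.23 CPM at day 30, and 2.51, 1.99, 1.95, 2.59 and 1.73 CPM at day 45. The days overlapped and edgeR called it in no comparison (day 45 against day 21 0.34 ± 0.21, edgeR adjusted p = 0.181). On the log2(TPM + 1) scale PPARGC1A was lower at day 30 than at day 21 (-0.45, limma adjusted p = 0.00298), or -0.10 relative to the median there. It was higher at day 45 than at day 30 on that scale (0.38, limma adjusted p = 0.00754). Of the summed TPM of the receptors, PPARD made up 73.5% ± 2.21 at day 21 (SD over 4 libraries), 75.1% ± 2.41 at day 30 (SD over 5 libraries) and 54.7% ± 3.70 at day 45 (SD over 5 libraries), and PPARA 21.7% ± 1.54, 21.5% ± 2.42 and 39.6% ± 4.54.

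Other genes of the same routes were read as lists. Of 15 other mitochondrial beta-oxidation enzymes, 6 were higher and 3 lower at day 45 than at day 21, with a median log2 fold change of 0.25. In this comparison 27.1% of all genes were higher and 30.5% lower, which bears on each of the lists that follow. HADH, the short chain hydroxyacyl-CoA dehydrogenase, had means of 93.6 ± 4.71 CPM at day 45 (SD over 5 libraries) and 50.6 ± 1.68 CPM at day 21 (SD over 4 libraries), a log2 fold change of 0.89 (edgeR adjusted p = 7.18e-08). ACOT13, a thioesterase, and ETFB, a subunit of the electron acceptor of the dehydrogenases, were higher by 0.84 and 0.72 (edgeR adjusted p = 5.94e-05 and 1.74e-04). ACAD8, which acts in valine breakdown, was lower by a log2 fold change of -0.82 (edgeR adjusted p = 7.05e-06).

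Peroxisomal oxidation had 14 of 15 genes tested, 8 higher and 2 lower at day 45 than at day 21, with a median of 0.35. PHYH, which starts alpha-oxidation of phytanic acid, had a log2 fold change of 1.34 (edgeR adjusted p = 3.84e-07), already reached at day 30 (1.33). HSD17B4, the bifunctional enzyme of peroxisomal oxidation, had means of 108 CPM at day 45 and 64.5 CPM at day 21 (0.74, edgeR adjusted p = 1.25e-06) and was lower at day 30 than at day 21 (-0.30, edgeR adjusted p = 0.00741). AMACR, a racemase for branched chains, was higher by 0.74 (edgeR adjusted p = 5.08e-06).

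Of 19 other triglyceride and droplet genes tested, 6 were higher and 4 lower, with a median of 0.02. HILPDA, which inhibits adipose triglyceride lipase, had means of 57.5 ± 9.96 CPM at day 45 and 14.4 ± 2.62 CPM at day 21, a log2 fold change of 2.0 ± 0.14 (SE; edgeR adjusted p = 2.10e-09). FITM2, needed for droplet budding, was higher by 1.05 (edgeR adjusted p = 1.37e-07). BSCL2, which encodes seipin, and LDAH, a droplet hydrolase, were lower, by -1.29 and -0.59 on the log2 scale (edgeR adjusted p = 2.76e-06 and 1.55e-04).

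Of 11 other uptake and carnitine genes tested, 7 were higher and 1 lower, with a median of 0.43. CAV1, the coat protein of caveolae, had means of 35.2 ± 9.06 CPM at day 45 and 0.891 ± 0.0802 CPM at day 21, a log2 fold change of 5.30 ± 0.21 (SE; edgeR adjusted p = 3.88e-12). VLDLR, a receptor of triglyceride-rich lipoproteins, had means of 109 CPM at day 45 and 16.5 CPM at day 21 (2.72, edgeR adjusted p = 3.63e-10). LIPG, endothelial lipase, and DBI, the acyl-CoA binding protein, were higher by 1.5 and 0.58 (edgeR adjusted p = 3.88e-04 and 0.00279). Of 8 endothelial markers, 5 had a mean under 1 CPM over all libraries and CDH5 was at 0 in every library. The sum of the 8 markers, mostly ERG, was 266 to 318, 229 to 301 and 153 to 198 CPM at days 21, 30 and 45. Of the 4 tested between day 45 and day 21, TIE1 (means of 11 CPM at day 45 and 1.65 CPM at day 21) and TEK were higher and ERG (150.4 CPM at day 45 and 271 CPM at day 21) and KDR were lower.

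Of 21 PPAR partners, coregulators and target genes tested, 7 were higher and 7 lower between day 45 and day 21, with a median of -0.06. Between day 45 and day 30, 14 were higher and 3 lower, beside 27.6% and 28.7% of all genes. The median there was 0.57, beside -0.04 over all genes. Between day 30 and day 21, 3 were higher and 11 lower, beside 27.2% and 27.1% of all genes. On log2(TPM + 1) the later step gave 12 higher and 2 lower genes, beside 27.1% and 23.3% of all genes. The earlier step gave 1 and 14 there, beside 10% and 50.6%. PDK4, a kinase that turns off pyruvate dehydrogenase, had means of 43.0 ± 6.47 CPM at day 45 and 11.3 ± 2.48 CPM at day 30 (1.93 ± 0.24, edgeR adjusted p = 6.16e-06). ANGPTL4, a secreted inhibitor of lipoprotein lipase, had means of 82.2 ± 26.8 CPM at day 45 and 35.1 ± 4.66 CPM at day 21 (1.23, edgeR adjusted p = 5.80e-05). TXNIP, a brake on glucose uptake, and ESRRA, a nuclear receptor of mitochondrial genes, were higher by 2.72 and 0.75 over the same days (edgeR adjusted p = 1.11e-11 and 9.00e-05). On log2(TPM + 1), where 12% of all genes were higher and 48.9% lower, day 45 against day 21 gave 3 higher and 6 lower mitochondrial genes, 3 and 4 peroxisomal genes, 4 and 8 droplet genes, 4 and 3 uptake genes, and 3 and 10 PPAR partners and targets.

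**Figure D5:**
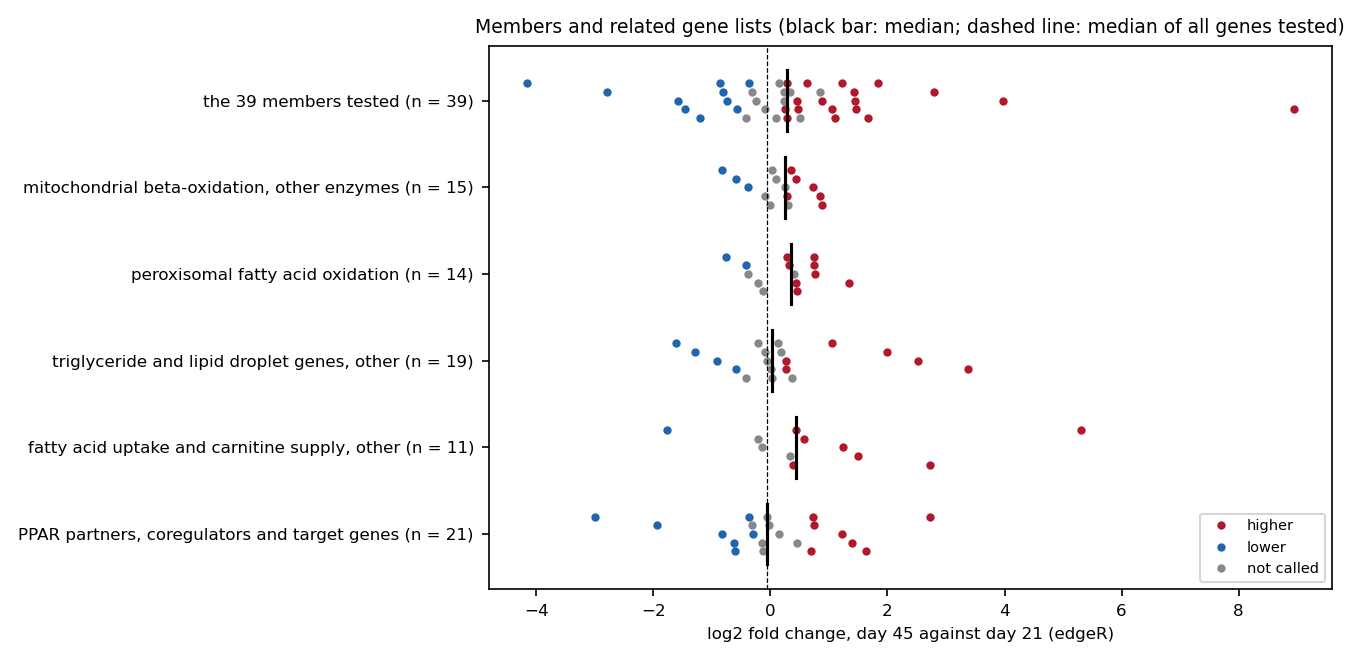
Log2 fold change of day 45 against day 21 of the 39 genes and of 5 related lists, 1 point a gene, coloured by edgeR call, with the median of each list as a black bar and the median of all genes (-0.05) dashed. SLC27A2 is the point at 8.94 in the top row, and CAV1 the point at 5.30 in the uptake list.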

How the data were processed

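RNA-seq of 14 libraries was analysed, from 4 pellet samples at day 21, 5 at day 30 and 5 at day 45. The authors deposited, per the file headers, an effective length, an expected count and a TPM for each of 60587 genes in each library. Per the submitters' processing notes, STAR 2.4.2a, RSEM 1.2.25 and GRCh38 were used; their annotation release is not given in sources used here. Per the labels' protocols, libraries were made with TruSeq RNA Library Prep Kit v2; that kit does not mark the strand. RSEM shares reads between near-identical genes by estimation, so such genes are uncertain.

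Deposited expected counts were rounded and CPM values computed from them with TMM factors. Genes were kept by filterByExpr. With 1 mean for each day, all 14 libraries entered a single edgeR 4.0.16 fit (robust quasi-likelihood F-test, R 4.3.3), with Benjamini-Hochberg adjustment over 17838 genes in each comparison. Each log2 fold change was fitted to the deposited expected counts, and its SE is its value over the square root of F. The deposited TPM served for levels between genes and, as log2(TPM + 1) or log2(TPM + 0.1), in limma 3.58.1. The deposited effective length served in the length offset and the length check. Identifiers were matched to GENCODE 29 (58400 found), which gave coordinates, shared exons and the names of the genes that share them. Symbols came from a separate list of gene names, which covered 60333 genes.

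The 41 genes and the related lists were chosen with earlier results of these data known. Genes given in full were called with more than 2-fold change in a comparison and at least 5 CPM at their highest day, or had the highest mean TPM of their role, or were PPAR regulators; up to 4 genes of each related list had the smallest adjusted p between day 45 and day 21 at the same level, and 1 of these genes is not reported here. The fit was tested on simulated data for day 45 against day 21 with 17838 genes. It recovered 26.6% of genes changed 1.5-fold, 65.2% of those changed 2-fold and 90.9% of those changed 4-fold, with 0.04% false calls. Only 64, 66 and 66 genes were changed by these folds, whereas 4836 genes were called higher and 5448 lower in the real comparison. The adjustment depends on the share of changed genes, so these rates cannot be read as those of the real comparison. In 26 pairs of replicates the chi-square over its degrees of freedom ran between 7.81 and 166.25.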

Additional observations from a re-analysis of the deposited data

Results flagged for a closer look

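Within days, 66 groups (22 genes by 3 days) were examined for a library far from the others, and 2 were found, where chance flags about 1 in 20 groups, or 3.30 in all. PLIN2 was at 114 CPM in day 45 replicate 5, against 77.6 to 87.3 CPM in the other day 45 libraries. PPARD was at 54.1 CPM in day 45 replicate 1, the library whose treatment label reads 30 days, against 46.8 to 47.9 CPM in the other day 45 libraries. Day 30 libraries had 40.4 to 50.2 CPM of PPARD, all below the 54.1 CPM of that library.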

How the results depend on the processing

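On both TPM scales the counts of calls moved most: for day 45 against day 21, 11 genes were higher on log2(TPM + 1) and 10 on log2(TPM + 0.1), against 18 by edgeR, and for day 30 against day 21, 6 were higher and 17 lower on both, against 15 and 7. On the log2(TPM + 1) and log2(TPM + 0.1) scales these genes turned: between day 45 and day 21 CPT2 (-0.14 and -0.16), ACADVL (-0.02 on both), HADHA (-0.14 on both), HADHB (-0.28 on both) and PLIN3 (-0.18 on both); between day 30 and day 21 SLC27A1 (-0.10 on both), FABP5 (-0.32 on both), HADHA (-0.27 and -0.28), HADHB (-0.34 on both), PLIN2 (-0.10 and -0.11), PLIN3 (-0.48 on both), PPARA (-0.17 and -0.20) and PPARD (-0.14 and -0.15). The median of all genes on the log2(TPM + 1) scale lay at -0.34 and -0.35 in these comparisons. With a gene length offset FABP3 turned to 0.30 for day 45 against day 30. For day 30 against day 21 the same offset made calls of ACSL1 and ACSL4, among others, and lost those of SLC27A5 and PLIN2. Placing day 45 replicate 1 at day 30 left 7 genes higher at day 45 than at day 30, against 12. Leaving out 1 library gave 16 to 18 higher and 10 to 12 lower genes for day 45 against day 21, 13 to 16 and 6 to 7 for day 30 against day 21, and 11 to 14 and 7 to 9 for day 45 against day 30. With the replicate number as a replicate block the counts were 18 and 11, 15 and 6, and 11 and 7. Same-numbered libraries of different days correlated at -0.1 to 0.13 in 13 pairs, so the numbers were not used to pair samples. Other counts, under DESeq2 size factors, DESeq2 1.42.0, 2 other filters, fits without robust dispersions or of only the days compared, the length offset and without day 30 replicates 3 to 5, stayed within 1.5 times. The causes of these shifts were not tested. Low counts limit SLC27A6, CD36, FABP4, ACSL5, PLIN1 and PLIN4.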
